A study of Mus musculus with 10 samples.

Results

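The replication-dependent histone genes are described here in cells sorted from the embryonic mouse brain. The genes were taken as all protein-coding genes of the deposited count table whose symbol begins with Hist1h, Hist2h, Hist3h or Hist4h, the older symbols of the histone clusters. The rule gave 67 of 53801 genes, of which 6 encode the linker histone H1, 18 encode H2A, 18 encode H2B, 12 encode H3 and 13 encode H4. The 54 Hist1 genes lie on chromosome 13 between positions 21715763 and 23934851 (GRCm38.p6), in a block of 23 and a block of 31 genes. The 10 Hist2 genes lie on chromosome 3 (96219865 to 96270132), the 2 Hist3 genes on chromosome 11 (58948920 to 58956830) and Hist4h4 alone on chromosome 6 (136801553 to 136804415). A further 3 genes with such symbols carry another biotype and were not included.

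Core histones H2A, H2B, H3 and H4 form the protein core around which DNA is wound, and H1 binds the DNA that links one core to the next. The replication-dependent genes are transcribed mainly in S phase, when new DNA has to be packaged. Their mRNAs are unusual in that most end just after a short stem-loop, which is bound by the stem-loop binding protein SLBP, and carry no poly(A) tail, although several of these genes can also give polyadenylated transcripts.

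The study sequenced bulk RNA of NG2+ and GFAP+ cells that were isolated by fluorescence-activated sorting from the dorsal brain of wild-type mice at embryonic day 14. All 10 libraries, 5 labelled GFAP and 5 labelled NG2, came from brains electroporated in utero at embryonic day 12 with the StarTrack plasmids, fluorescent reporters for following the progeny of single progenitors. All carry the cell type label neural stem cells and the same batch number, RNA was amplified by the SMARTer method, and libraries were made after poly(A) enrichment. The sources used here do not give how NG2 and GFAP positivity was defined in the sort or whether a library pools several embryos. The spread between libraries may therefore be biological or technical.

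The 10 libraries held 12945436 to 17569730 counts. Cspg4, which encodes NG2, had 11 to 22 reads in the GFAP libraries and 79 to 118 reads in the NG2 libraries, while Gfap had 0 to 7 reads in the GFAP and 0 to 5 reads in the NG2 libraries. All 12 radial glia markers examined were expressed highly enough to be tested, and so were all 12 neuronal and all 10 microglial markers. Neuronal markers summed to 5155 ± 527 CPM (counts scaled to library depth) in GFAP and 6226 ± 794 CPM in NG2 libraries, radial glia markers to 2001 ± 284 and 1679 ± 357 CPM, and microglial markers to 90.4 ± 51.2 and 172 ± 131 CPM (SD, n = 5 each). A pair of libraries stood apart. NG2 replicate 5 had reads for 18903 genes, against 22988 to 24444 in the other NG2 and 23259 to 24208 in the GFAP libraries, although its total count was the highest. GFAP replicate 2 had the highest summed level of cell-cycle transcripts, with values given beside the histone results below.

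Of the 67 histone genes, 61 had at least 1 read in at least 1 library, although the libraries were enriched for poly(A) RNA. Reads in all 10 libraries were found for 38 genes, and at least 10 reads in all of them for 18 genes. No read was counted for 6 genes, namely Hist1h2aa, Hist2h2aa1, Hist2h2aa2, Hist2h2bb, Hist2h3b and Hist2h3c1. A total of 3 counts over all libraries, the limit that a count of 0 allows for counting error, corresponds to 0.0197 CPM. It does not cover reads left unassigned because of shared sequence or overlapping annotation, which are described below. A further 5 genes had 1 to 9 reads in all, among them Hist1h1t and Hist1h2ba with 1 read each, which encode the testis-specific linker histone and a testis-specific H2B. The number of histone genes with reads was 52 to 58 in 9 libraries and 44 in NG2 replicate 5.

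Histone transcripts made up a small share of all counts. Together the 67 genes took 94622 reads, or 0.0496% to 0.0750% of the counts of a library. A few genes held most of these reads. Hist1h2ao alone gave 32.1% of them, Hist1h2ao, Hist3h2ba and Hist3h2a together gave 66.8%, and the top 12 genes gave 93.6%. By class, H2A genes gave 49.3% of the histone reads, H2B 34.1%, H1 8.20%, H4 6.84% and H3 1.48%.

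Levels of different genes were compared per transcript length, as the deposited FPKM (fragments scaled to transcript length and library depth). Hist1h2ao, an H2A gene at chr13:21810465-21810944 on the plus strand, had the highest mean of the 67 genes at 407 FPKM over the 10 libraries. Hist3h2ba, an H2B gene at chr11:58948920-58949533 on the plus strand, followed with 257 FPKM. These 2 genes stood well above Hist1h2ap with 50.1 FPKM, Hist3h2a with 26.1, Hist1h2ae with 22.7 and Hist1h2bc with 20.7. The leading H1 gene was Hist1h1b with 19.96 FPKM, and the leading H4 genes were Hist1h4d with 19.5 and Hist1h4i with 18.8. No H3 gene came near these values, as the highest, Hist1h3c, had a mean of 3.15 FPKM. The median over all 67 genes was 0.849 FPKM.

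**Figure D1:**
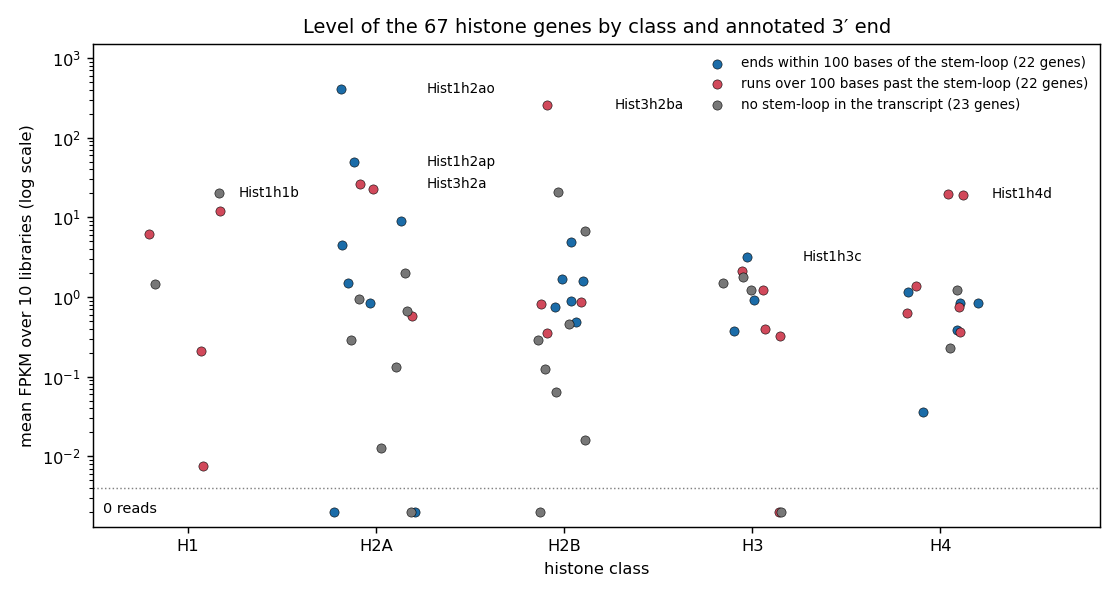
Mean deposited FPKM over the 10 libraries (vertical log axis) of each of the 67 histone genes, grouped by histone class and coloured by where the annotated transcript ends relative to the stem-loop, with genes without reads on the line at the bottom. Hist1h2ao (407 FPKM) and Hist3h2ba (257 FPKM) lie above all other genes, and the highest H3 gene, Hist1h3c, reaches 3.15 FPKM.

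The stem-loop was looked for in the annotated transcripts (GENCODE M21) on the transcript strand by its 16-base consensus, with any base allowed at the 5 positions where the forms given below differ from one another. It was found in 44 of the 67 genes, and in 46 when 1 mismatch was allowed. Bases past the annotated ends were not searched. Several genes without a match have short annotated transcripts, such as Hist1h4k with 312 bases and Hist1h2bl with 381. A stem-loop may lie beyond such ends. The match is printed below in capitals, with up to 5 bases on either side, for the genes with the highest CPM of each class that had one, because the form of the stem differed by class.
Hist1h1e: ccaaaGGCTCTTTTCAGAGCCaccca
Hist1h1c: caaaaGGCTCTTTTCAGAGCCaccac
Hist1h2ao: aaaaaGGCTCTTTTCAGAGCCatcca
Hist3h2a: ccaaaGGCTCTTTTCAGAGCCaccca
Hist1h2ap: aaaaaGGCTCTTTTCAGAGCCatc
Hist1h2ae: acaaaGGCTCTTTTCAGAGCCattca
Hist3h2ba: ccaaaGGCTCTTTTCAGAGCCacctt
Hist1h3d: ccaaaGGCTCTTTTCAGAGCCacccc
Hist1h3c: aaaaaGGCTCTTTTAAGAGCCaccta
Hist1h4d: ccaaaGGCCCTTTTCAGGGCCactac
Hist1h4i: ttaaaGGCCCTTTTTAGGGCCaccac
Hist4h4: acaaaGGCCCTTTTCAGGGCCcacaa

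The form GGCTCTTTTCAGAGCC was present in 26 genes, 10 of them H2A, 8 H2B, 5 H3 and 3 H1, and in no H4 gene. H4 genes instead carried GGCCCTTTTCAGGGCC in 7 cases, GGCCCTTTTTAGGGCC in 2 and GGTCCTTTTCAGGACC in 2, forms that were found in no other class. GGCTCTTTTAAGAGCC occurred in 6 genes, 3 of them H3. Hist1h2ao, Hist1h2ap and Hist3h2ba, which differ widely in level, share the same 16 bases.

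The annotated ends fell into 3 groups. In 22 genes the longest annotated tail ended within 100 bases after the stem-loop, and in 22 it ran on for more than 100 bases. In 23 no stem-loop was in the transcript as annotated, which may stop short of it. The limit of 100 bases was chosen after the data were seen. The median of the mean FPKM was 0.892, 0.841 and 0.462 in these groups. FPKM divides by the annotated length, which is greater where the annotation runs on. The median of the mean CPM, which does not, was 0.510, 1.5 and 0.255, and 9 of 22, 16 of 22 and 8 of 23 genes had enough reads to be tested. Hist1h2ao ended 31 bases after its stem-loop, with no polyadenylation signal (AATAAA or ATTAAA) in its last 40 bases, and still had the highest FPKM. Hist3h2ba ran 169 bases past its stem-loop, Hist3h2a 1643 and Hist1h1c 840, each to a signal near the annotated end. In all, 17 of the 67 genes had such a signal, with a median of 0.743 FPKM and 0.591 CPM, against 0.864 FPKM and 0.498 CPM in the 50 without one.

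The transcript ends of 5 of the highly ranked genes with a signal are printed to show where it lies. Others, such as Hist1h2ae, had a signal too. A match describes these letters only, and use of the end for polyadenylation was not measured. The signal is in capitals.
Hist3h2ba polyA signal: cataatggtattAATAAAtttggttcaatt
Hist3h2a polyA signal: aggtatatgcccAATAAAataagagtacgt
Hist1h1c polyA signal: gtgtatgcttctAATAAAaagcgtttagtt
Hist2h2be polyA signal: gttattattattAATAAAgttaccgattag
Hist1h4i polyA signal: ggttctgtttacATTAAAagtattctatgc

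Near-identical copies limit what single-gene counts of histones mean. Of the 150-base windows of the Hist1h2ao transcript, 8.46% occur in no transcript of another locus, all of them starting between bases 304 and 331 and so at its 3′ end. For Hist1h2ap the share was 9.01%, for Hist1h3h 9.54%, and for Hist2h2aa2, which had no reads, 0%. A share under 50% was found for 20 genes, whereas Hist3h2ba, Hist3h2a, Hist1h4d, Hist1h1b, Hist1h1c and Hist1h1e had 100%. The sources used here do not give how reads that match several places were counted. Values of Hist1h2ao and Hist1h2ap are therefore uncertain and may include or lack reads of related H2A genes.

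Overlapping annotation also touches the genes without reads. Exons of 24 of the 67 genes share bases with another annotated gene, including all 18 H2A genes, whose partners are mostly predicted miRNA genes that had 0 reads. Hist2h2aa1, Hist2h2aa2, Hist2h2bb, Hist2h3b and Hist2h3c1 share 100% of their exon bases with other transcripts. Of those partners, Gm20632 had 180 reads over the 10 libraries, Gm20628 had 61 and Gm20633 had 60. Gm42743 had 17, and Gm20634, the only partner of Hist2h3c1, had 1. Hist3h2a shares 33.0% of its exon bases with Trim17 on the same strand and with a predicted miRNA gene, and Trim17 had 12 to 49 reads per library against 681 to 1107 for Hist3h2a. Hist1h1e and Hist1h2be share exon bases with each other.

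Promoters were available from RefSeq (GRCm38.p6) for 61 of the 67 genes, as 250 bases before to 50 bases after the annotated start, and were searched on both strands. The CCAAT box, spelled CCAAT, occurred in 85.2% of them, against 37.4% of 32851 promoters of the same length. It was present in all 5 H1, 18 H2A, 16 H2B and 10 H3 promoters and in 3 of 12 H4 promoters. The TATA box, spelled TATAAA, occurred in 55.7% of the histone promoters and 13.6% of all promoters. The octamer ATTTGCAT, which is the site known for OCT1 (Pou2f1) in H2B promoters, occurred in 21.3% and 1.74%. It was found in 7 of 18 H2A and 6 of 16 H2B promoters and in no H1, H3 or H4 promoter. These are not all separate sites. Hist1h2ae and Hist1h2bg, on opposite strands with overlapping promoter windows, hold the same octamer. So do Hist1h2ah and Hist1h2bk, and Hist1h2aa and Hist1h2ba. Some CCAAT matches are shared in the same way, for example between Hist1h2ao and Hist1h2bq. A match describes these letters only and is not a measured binding site.

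The 150 bases before the RefSeq start are printed for the 4 genes whose counts the comparisons below turn on, with the matches in capitals, on the strand of the gene. For Hist1h2ao, Hist3h2ba and Hist1h4d these stretches end upstream of the deposited gene starts (21810465, 58948920 and 23581598). The bases between are not printed. Their coordinates are chr13:21810217-21810366 for Hist1h2ao, chr11:58948761-58948910 for Hist3h2ba, chr11:58954535-58954684 for Hist3h2a and chr13:23581418-23581567 for Hist1h4d.
Hist1h2ao: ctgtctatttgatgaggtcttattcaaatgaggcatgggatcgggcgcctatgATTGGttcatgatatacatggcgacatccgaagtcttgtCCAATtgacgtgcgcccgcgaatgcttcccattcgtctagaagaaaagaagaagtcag
Hist3h2ba: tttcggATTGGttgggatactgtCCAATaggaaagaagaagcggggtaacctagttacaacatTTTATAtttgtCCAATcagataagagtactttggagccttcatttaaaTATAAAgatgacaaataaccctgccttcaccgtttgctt
Hist3h2a: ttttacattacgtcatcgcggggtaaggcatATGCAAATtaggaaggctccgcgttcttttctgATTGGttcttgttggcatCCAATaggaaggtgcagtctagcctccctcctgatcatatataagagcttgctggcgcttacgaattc
Hist1h4d: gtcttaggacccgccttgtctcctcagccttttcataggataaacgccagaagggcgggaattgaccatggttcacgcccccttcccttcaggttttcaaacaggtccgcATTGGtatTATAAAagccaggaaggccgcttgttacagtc

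The comparison of NG2 with GFAP libraries asked whether the sorted populations differ in histone transcripts. None of the histone genes passed the test. After the filter on low counts 33 of the 67 genes were tested, holding 98.8% of the histone reads, and 0 of 33 had a Benjamini-Hochberg adjusted p under 0.05 by edgeR's quasi-likelihood test. Among all 16187 genes tested 24 did, which is 0.148%, with 12 higher and 12 lower in NG2 (0.0741% each). At an unadjusted p under 0.05 there was 1 histone gene, where 12.8% of all tested genes reached that value. By DESeq2 1 histone gene was called (2.66% of all genes with an adjusted p) and by voom with sample weights 3 were (8.9%). No histone gene was called by edgeR without NG2 replicate 5, where 0.71% of all genes were, or without GFAP replicate 2 and NG2 replicate 5 together, where 1.61% were. Because the RNA is from bulk samples, fewer cells that express a gene and less RNA per cell cannot be told apart.

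The gene with the smallest p was Hist3h2a, an H2A gene outside the large cluster. Its CPM was 49.0, 42.8, 52.1, 52.5 and 47.3 in GFAP replicates 1 to 5 and 61.0, 66.6, 77.0, 58.5 and 58.5 in NG2 replicates 1 to 5. Every NG2 library was above every GFAP library, and Hist3h2a was the only one of the 33 tested histone genes with separate groups, a separation shown by 3.28% of all tested genes. The means were 48.8 ± 4.00 and 64.3 ± 7.80 CPM (SD, n = 5 each). The difference, 0.40 ± 0.11 (SE) on the log2 scale, did not pass edgeR's test (Benjamini-Hochberg adjusted p = 0.155), passed DESeq2's (adjusted p = 0.0229) and that of voom with sample weights (0.27, adjusted p = 0.0383). In the authors' deposited table the log2 fold change of Hist3h2a was 0.41 with an adjusted p of 0.0239, the 1 histone gene under 0.05 among 332 of 28627 genes (1.16%). With any 1 library left out, the edgeR adjusted p was 0.0685 to 0.339.

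Its neighbour Hist3h2ba, the second highest histone gene in FPKM, did not separate the groups. Hist3h2ba had 148, 120.1, 181, 121 and 174 CPM in GFAP and 151, 153, 192, 139 and 216 CPM in NG2 replicates 1 to 5. The groups overlapped over most of their range, with means of 149 ± 28.5 and 170.3 ± 32.4 CPM (SD, n = 5 each), and the log2 difference was 0.19 ± 0.15 (edgeR, Benjamini-Hochberg adjusted p = 0.621).

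Hist1h2ao differed more within the groups than between them. Its CPM was 148, 316, 164, 143 and 128 in GFAP and 223, 155, 157, 292 and 248 in NG2 replicates 1 to 5. GFAP replicate 2 was the highest of all libraries and the other 4 GFAP libraries were among the 6 lowest. The means of 179.9 ± 77.5 and 215 ± 59.4 CPM differed by 0.26 ± 0.24 on the log2 scale (edgeR, Benjamini-Hochberg adjusted p = 0.693). With voom's sample weights, the difference was 0.78 (adjusted p = 0.0116). Hist1h2ap, the related H2A gene, ranged from 9.94 to 36.7 CPM in GFAP and from 18.1 to 28.6 CPM in NG2 libraries. Hist1h2ae ranged from 6.86 to 24.2 and from 11.8 to 25.7 CPM.

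**Figure D2:**
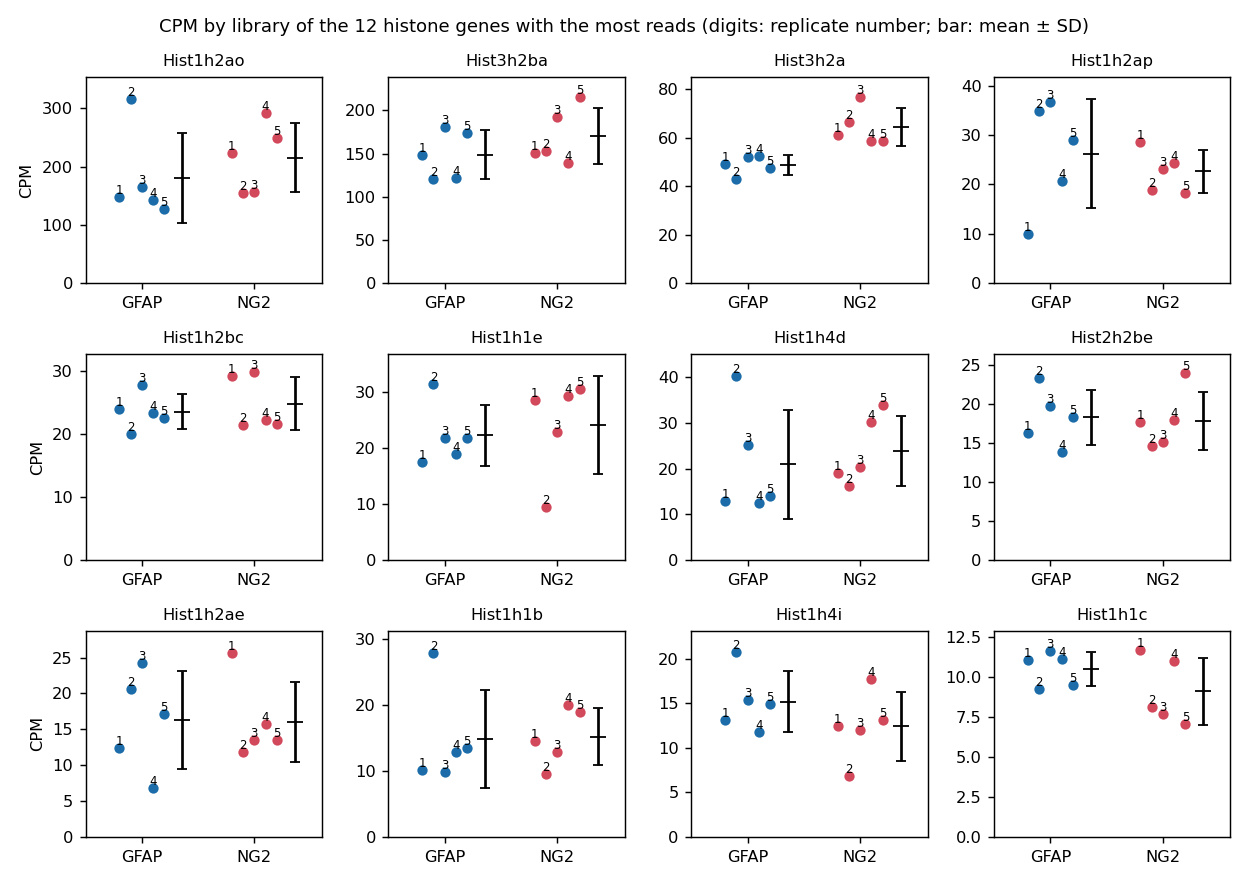
CPM in each library (points, numbered by replicate, with mean ± SD, n = 5 per group) for the 12 histone genes with the most reads; every vertical axis is linear and starts at 0. The groups are separate only for Hist3h2a, and GFAP replicate 2 is the highest GFAP library for Hist1h2ao, Hist1h4d and Hist1h1b but not for Hist3h2ba, Hist3h2a, Hist1h2bc or Hist1h1c.

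H2B genes other than Hist3h2ba showed no separation either. Hist1h2bc, which had nearly the same level in all libraries (20.03 to 29.8 CPM), had means of 23.5 ± 2.78 in GFAP and 24.8 ± 4.24 CPM in NG2 libraries. Hist2h2be had 18.3 ± 3.56 and 17.8 ± 3.70 CPM. Hist1h2be ranged from 3.50 to 6.06 CPM in GFAP libraries and from 2.75 to 4.71 CPM in NG2 replicates 1 to 4, and had 0.113 CPM, from 2 reads, in NG2 replicate 5. Its log2 difference was -0.68 ± 0.52 (edgeR, Benjamini-Hochberg adjusted p = 0.628).

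Linker histone genes had sums that differed by less than their spread. Summed over the 6 genes, H1 transcripts reached 50.5 ± 12.5 CPM in GFAP and 50.9 ± 14.3 CPM in NG2 libraries (SD, n = 5 each). Hist1h1e was the highest in CPM, with 22.3 ± 5.43 and 24.2 ± 8.77, and Hist1h1b followed with 14.8 ± 7.44 and 15.1 ± 4.34. Hist1h1b had 10.2, 27.8, 9.79, 12.8 and 13.5 CPM in GFAP replicates 1 to 5, so that GFAP replicate 2 lay above all other libraries. Hist1h1c ranged from 9.23 to 11.6 CPM in GFAP and from 7.04 to 11.7 CPM in NG2 libraries, and Hist1h1d from 1.33 to 3.01 and from 0 to 2.07 CPM.

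Among H4 genes, Hist1h4d had 12.9, 40.2, 25.3, 12.4 and 14.1 CPM in GFAP and 19.1, 16.1, 20.3, 30.2 and 33.9 CPM in NG2 replicates 1 to 5. The groups overlapped, and the log2 difference was 0.19 ± 0.31 (edgeR, Benjamini-Hochberg adjusted p = 0.844; voom with sample weights 0.77, adjusted p = 0.0391). Hist1h4i had 15.2 ± 3.42 and 12.4 ± 3.86 CPM and Hist1h4c 1.24 ± 0.455 and 1.00 ± 0.543 CPM. Hist4h4, the single gene on chromosome 6, had 5.13 CPM in NG2 replicate 5 and 0.700 to 2.38 CPM in the other 9 libraries.

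H3 genes were low throughout, and the largest fold changes in both directions were found among them. Hist1h3g had 0.482 ± 0.222 CPM in GFAP and 0.810 ± 0.322 CPM in NG2 libraries, a log2 difference of 0.72 ± 0.48 (edgeR, Benjamini-Hochberg adjusted p = 0.566). Hist1h3h had 0.907 ± 0.530 and 0.555 ± 0.489 CPM, a log2 difference of -0.68 ± 0.72 (adjusted p = 0.732). Both estimates rest on fewer than 24 reads in any library, and their errors are large. Hist1h3d ranged from 1.16 to 4.58 CPM in GFAP and from 1.04 to 5.12 CPM in NG2 libraries, Hist1h3c from 1.34 to 3.58 and from 1.17 to 3.10 CPM, and Hist1h3e from 0.700 to 1.57 and from 0.348 to 1.91 CPM.

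The other 12 tested histone genes had mean levels of 0.591 to 4.34 CPM, log2 differences of -0.53 to 0.40 and edgeR adjusted p of 0.692 or more (Benjamini-Hochberg). The 28 genes that had reads but were too low to test held 1 to 86 reads each over the 10 libraries, and their mean levels reached 1.24 FPKM.

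Over the 33 tested genes the log2 differences ran from -0.68 to 0.72, with 15 above and 18 below 0. Their median of -0.03 lay beside -0.01 for all tested genes. The median SE was 0.43 for the histone genes and 0.17 for all tested genes. Class sums, which do not depend on how reads are divided among near-identical genes of one class, differed by less than their SD over all libraries. Summed CPM was 282 ± 85.9 in GFAP and 329 ± 58.1 in NG2 libraries for H2A, 202 ± 30.6 and 223 ± 34.2 for H2B, 9.66 ± 3.10 and 8.80 ± 2.70 for H3, and 42.1 ± 15.5 and 42.4 ± 10.9 for H4. For all 67 genes the sums were 587 ± 113 and 654 ± 88.9 CPM, and without Hist1h2ao 407 ± 55.4 and 439 ± 47.7 CPM. The GFAP means and SDs for H2A and for all genes depend on GFAP replicate 2. Both would be lower without GFAP replicate 2, so for these sums the comparison with the spread rests on that library. The H2A sum of GFAP replicate 2 was 429 CPM, against 229 to 289 in the other GFAP and 260 to 403 in the NG2 libraries. Its sum over all 67 genes was 760 CPM, against 484 to 635 in the other GFAP and 520 to 743 in the NG2 libraries.

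**Figure D3:**
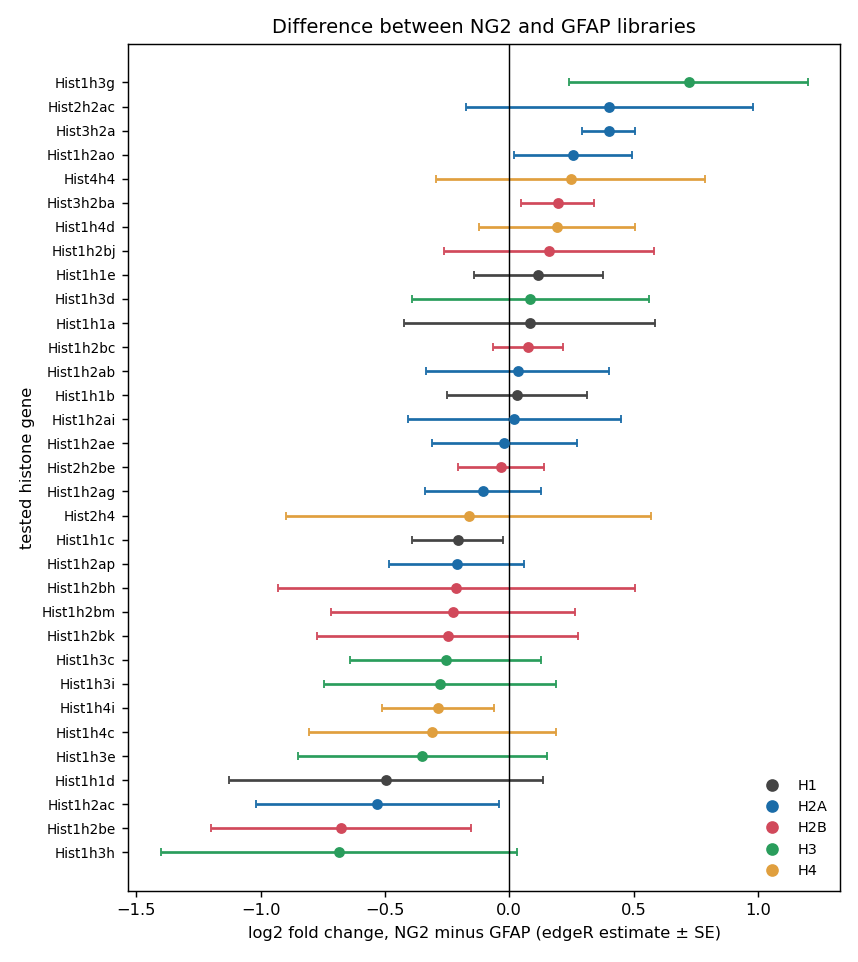
Log2 fold change of NG2 over GFAP (horizontal axis, edgeR estimate ± SE) for the 33 tested histone genes, ordered by size and coloured by class. Estimates run from -0.68 (Hist1h3h) to 0.72 (Hist1h3g), and Hist3h2a (0.40 ± 0.11) has the smallest error.

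Many histone genes of the large cluster were high or low in the same libraries. In GFAP replicate 2, 23 of the 27 tested Hist1 genes were above the mean of the other GFAP libraries, 13 of them (48.1%) by more than 1.5-fold, and none was more than 1.5-fold lower. Of all tested genes 6.68% were more than 1.5-fold higher there and 15.5% were more than 1.5-fold lower. The ratio to the other GFAP libraries was 2.49 for Hist1h4d, 2.41 for Hist1h1b, 2.21 for Hist1h3d and 2.17 for Hist1h2ao. In NG2 replicate 2, 2 of the 27 tested Hist1 genes (7.41%) were above the mean of the other NG2 libraries, against 48.1% of all tested genes. More than 1.5-fold lower there were 37.0% of the tested Hist1 genes and 14.5% of all tested genes. There Hist1h1e was at 0.338 and Hist1h4i at 0.498 of that mean. Other libraries departed from all genes too. In GFAP replicates 1, 4 and 5, 22.2%, 25.9% and 29.6% of the tested Hist1 genes were above the other GFAP libraries, whose mean includes GFAP replicate 2. In GFAP replicate 3 and NG2 replicates 1 and 4 that share was 66.7%. More than 1.5-fold lower in GFAP replicate 1 were 37.0% of the tested Hist1 genes and 4.18% of all tested genes. These shares past 1.5-fold were not matched for level. Genes with few reads pass it more easily, and the median SE was 0.43 for tested histone genes and 0.17 for all tested genes.

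Some histone genes did not follow this pattern. In GFAP replicate 2, the ratio to the other GFAP libraries was 0.770 for Hist3h2ba, 0.851 for Hist3h2a, 0.821 for Hist1h2bc and 0.854 for Hist1h1c. The highest library had 1.49 times the CPM of the lowest for Hist1h2bc, 1.66 times for Hist1h1c and 1.80 times for both Hist3 genes. Hist2h2be and Hist1h2ag spanned as little, 1.73 times each, although GFAP replicate 2 was at 1.37 and 1.32 times the other GFAP libraries for these genes. Hist4h4, Hist1h2ai and Hist1h1a were likewise lower in GFAP replicate 2 (ratios of 0.720, 0.745 and 0.852) but spanned 7.33, 3.30 and 6.38 times. Hist1h2ao, Hist1h1b, Hist1h4d and Hist1h1e spanned 2.48, 2.93, 3.25 and 3.33 times. The genes named in these comparisons were chosen after their values were seen.

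**Figure D4:**
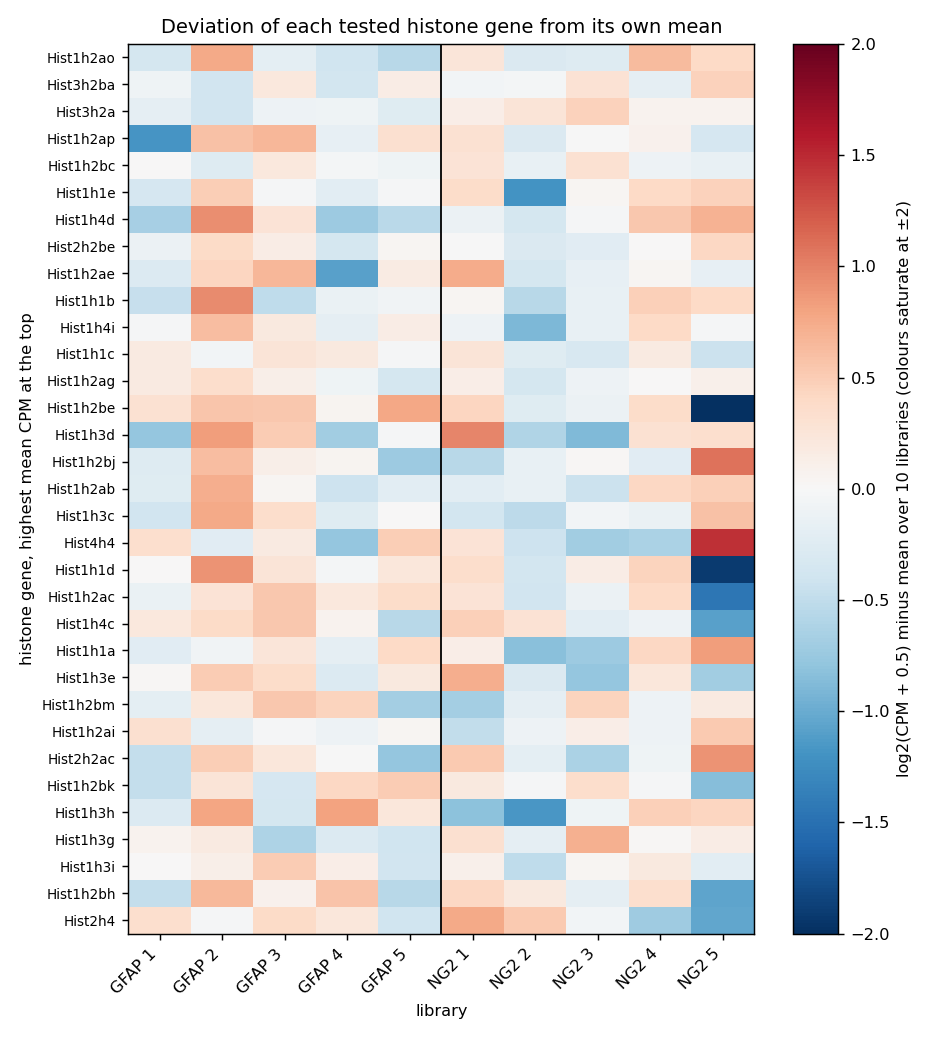
Deviation of each of the 33 tested histone genes (vertical, ordered by mean CPM) from its own mean in each library (horizontal), as log2(CPM + 0.5), with red for higher and blue for lower values. The GFAP replicate 2 column is mostly red and the NG2 replicate 2 column mostly blue, and NG2 replicate 5 holds both the strongest red (Hist4h4) and the strongest blue cells (Hist1h2be and Hist1h1d).

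Transcripts of the DNA replication machinery were high in the same GFAP library. The summed CPM of 45 DNA replication and G1/S genes was 8274 in GFAP replicate 2, 4737 to 5018 in the other GFAP libraries and 4355 to 5521 in the NG2 libraries. The 24 G2/M genes summed to 7347 CPM in GFAP replicate 2, against 4428 to 4960 in the other GFAP and 3969 to 4802 in the NG2 libraries. Radial glia markers summed to 2496 CPM there, against 1798 to 1943 in the other GFAP libraries, and neuronal markers to 4239 against 5195 to 5533. In NG2 replicate 2 the radial glia markers were lowest, with 1160 CPM against 1461 to 2003 in the other NG2 libraries, while its DNA replication sum of 4478 CPM lay within theirs. Their part in the histone levels was not tested.

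**Figure D5:**
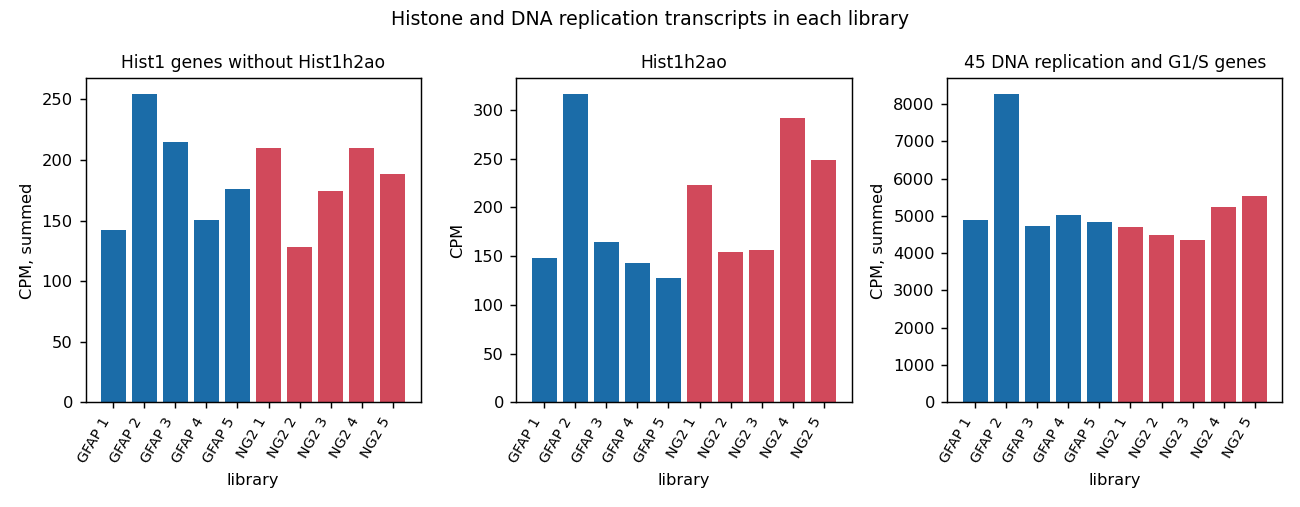
Summed CPM of the Hist1 genes other than Hist1h2ao, CPM of Hist1h2ao, and summed CPM of 45 DNA replication and G1/S genes in each library (bars from 0; blue GFAP, red NG2). GFAP replicate 2 is the highest library in all 3 panels, with 255, 316 and 8274 CPM.

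NG2 replicate 5 differed in another way. Of 48 histone genes with reads in each of the other 9 libraries, 10 (20.8%) had none there, compared with 10.3% of all genes. The 10 were Hist1h1d, Hist1h2bb, Hist1h2bf, Hist1h2bh, Hist1h2bn, Hist1h3a, Hist1h3b, Hist1h4h, Hist1h4j and Hist2h4. They were low elsewhere too, with 27 to 236 reads each over all libraries. The shares were not matched for level, so they do not show a loss particular to histone genes. Hist1h2be was at 0.0301 and Hist1h2ac at 0.119 of the mean of the other NG2 libraries, while Hist4h4 was at 4.47 times and Hist1h2bj at 2.87 times that mean. The summed histone CPM in that library, 743, was nevertheless the second highest of all. The fewer genes with reads in that library moved with these zeros, and their part was not tested.

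Genes that act on or beside these histones were taken from lists chosen with earlier results of these data known. None of their genes passed edgeR's test (Benjamini-Hochberg adjusted p under 0.05), where 0.148% of all genes did. At an unadjusted p under 0.05 there were 23 of the 128 tested genes of these lists, where 12.8% of all genes reached that value. DESeq2 called 3 of 45 DNA replication genes and 1 of 24 G2/M genes, where it called 2.66% of all genes. Voom with sample weights, which called 8.9% of all genes, called 2 of the DNA replication genes and 1 gene each among the replacement histones, the transcription and processing genes, the decay genes and the chaperones. Of 45 DNA replication and G1/S genes, 43 had a negative log2 difference, with a median of -0.18. This direction rested on GFAP replicate 2. Without that library 23 were negative and 22 positive, the median was -0.00317, and the summed CPM was 4871 ± 117 in the other 4 GFAP libraries against 4860 ± 503 in NG2. Rrm2, which makes deoxynucleotides, had 528 ± 203 CPM in GFAP and 481 ± 37.1 CPM in NG2 libraries, but 438 ± 41.5 CPM in the 4 GFAP libraries without replicate 2, so that the direction turned. Mcm7, a subunit of the replicative helicase, had 413 ± 97.0 and 365 ± 46.9 CPM, and 370.1 ± 17.6 CPM in those 4 GFAP libraries.

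All 24 G2/M genes had a negative difference with a median of -0.27, which was -0.13 with 22 negative genes without GFAP replicate 2. The 33 tested histone genes had a median of -0.03 with and 0.03 without that library. Of the cell type markers, none passed edgeR's test in the same fit (Benjamini-Hochberg adjusted p under 0.05). An unadjusted p under 0.05 was reached by 5 of 12 radial glia, 3 of 6 intermediate progenitor and 7 of 12 neuronal markers. It was reached by 0 of 10 microglial markers and by 12.8% of all tested genes. The median was -0.37 for radial glia with 12 of 12 genes negative, -0.26 for intermediate progenitors with 5 of 6 negative, 0.33 for neurons with 12 of 12 positive and 0.90 for microglia with 10 of 10 positive. Without GFAP replicate 2 these medians were -0.18, -0.20, 0.23 and 0.79. The part of these markers in the group values of the histone and cell-cycle genes was not tested.

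The chaperones that carry histones to DNA had a median of -0.15, with 12 of 17 genes negative (-0.0472 with 10 negative without GFAP replicate 2).

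The genes for transcription and 3′ end formation of histone mRNA were even between the groups, with 11 positive and 13 negative differences and a median of -0.03 (0.0795 without GFAP replicate 2). Among them Slbp, singled out after its values were seen because its protein binds the stem-loop, had 176 ± 54.0 CPM in GFAP and 171 ± 14.7 CPM in NG2 libraries. The 9 genes of histone mRNA decay had a median of -0.01. Replacement histones, which are made outside S phase too and from polyadenylated mRNA, had far more counts in these libraries than the cluster genes. The libraries were enriched for poly(A) RNA, which most mRNAs of the cluster genes lack, so these levels do not compare the total mRNA of both. The 10 replacement histone genes summed to 7691 ± 814 CPM in GFAP and 8159 ± 755 CPM in NG2 libraries. Of the 10, 7 had a positive difference, and the median was 0.07. H3f3b, which encodes H3.3, alone had 2899 ± 174 and 3229 ± 514 CPM, and H1f0 had 1113 ± 178 and 1113 ± 157 CPM. H2afx, a stem-loop gene outside the clusters that also gives a polyadenylated mRNA, had 391 ± 99.0 and 365 ± 59.1 CPM, with its highest value of 566 CPM in GFAP replicate 2 and 348 ± 19.8 CPM in the other 4 GFAP libraries.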

How the data were processed

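Bulk RNA-seq counts of 5 GFAP and 5 NG2 libraries were analysed. Per the submitters' processing notes, HISAT2 and featureCounts 1.5.0-p3 were used with GRCm38.p6. The authors deposited raw read counts and FPKM per gene, and a comparison table with log2 fold changes, p-values and group means of normalised signal, per the file headers; FPKM was used only to compare genes. Counts were tested with edgeR 4.0.16 (quasi-likelihood, TMM, filterByExpr, Benjamini-Hochberg over 16187 genes; R 4.3.3, limma 3.58.1), log2 fold changes being NG2 minus GFAP. CPM uses the tested genes' TMM-scaled totals. DESeq2 1.42.0, voom with sample weights, other scalings and filters, and omission of each library were alternatives. The fit was checked on simulated counts.

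The members and all lists were chosen with earlier results of these data known. Named were histone genes past the threshold or without group overlap, the 4 highest by CPM per class, the largest fold changes in each direction and, per companion list without calls, the 2 highest genes. Stem-loops were searched in GENCODE M21 transcripts; the planned search of sequence beyond annotated ends was not run, for want of a genome here. P-values measure the spread between these libraries, and floors cover counting error only. Total counts of 12945436 to 17569730 set the precision. Every pair of libraries differed by a chi-square of at least 6.18 per degree of freedom, more than sampling noise. Same-numbered libraries were not treated as pairs.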

Additional observations from a re-analysis of the deposited data

Results flagged for a closer look

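In groups of 5 libraries, 54 sets of values were tested for a sample far from the others, and 6 were found. Chance alone gives about 5% of such groups when they are independent. These sets are not, since the summed H1 values contain Hist1h1b and Hist1h1d and many Hist1 genes moved together. In 4 of the 6, GFAP replicate 2 lay above the other GFAP libraries. Hist1h2ao had 316 CPM there against 128 to 164 in the others, and Hist1h1b had 27.8 CPM against 9.79 to 13.5. Hist1h1d had 3.01 CPM against 1.33 to 1.75, and the summed H1 genes had 72.5 CPM against 40.9 to 48.0. Hist1h2ae had 25.7 CPM in NG2 replicate 1 against 11.8 to 15.7 in the other NG2 libraries. Hist4h4 had 5.13 CPM in NG2 replicate 5, where fewer genes had reads, against 0.765 to 1.98 in the other NG2 libraries.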

How the results depend on the processing

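No histone gene was called under any other edgeR setting run, including each library left out; DESeq2 called 1 and voom with sample weights 3. Of the 67 genes, 61 had a read in any, 38 in all, and 18 at least 10 reads in all libraries. Over all genes, 12 were higher and 12 lower in NG2; with no expression filter the counts were 58 and 37, with protein-coding genes alone 19 and 20, by DESeq2 212 and 134, by voom 584 and 857, without GFAP replicate 2 and NG2 replicate 5 together 109 and 154, and with any 1 library left out 3 to 70 and 0 to 47. With the replicate number as a block, 1 gene was higher and 0 were lower, and no histone gene was called. Same-numbered libraries correlated at -0.02 to 0.08 in their deviations, and 1 of 5 GFAP libraries correlated best with its own number. The numbers thus gave no sign of pairing, but low correlations cannot exclude a shared origin of same-numbered libraries. In that block fit, Hist1h2ae was at 0.0340 and Hist4h4 at -0.0241. By voom, list counts became 1 for replacement histones, 1 for transcription and 3′ end processing, 1 for decay, 1 for chaperones, 2 for DNA replication, 2 for intermediate progenitors, 3 for neurons and 1 for erythroid markers. By DESeq2 they were 3 for DNA replication, 1 for G2/M, 2 for radial glia, 2 for intermediate progenitors and 4 for neurons. With no filter they were 1 for DNA replication, 1 for radial glia and 2 for neurons. Library-size scaling, the stricter filter and protein-coding genes alone each gave 1 for intermediate progenitors. Without GFAP replicate 2 and NG2 replicate 5, the count was 1 each for radial glia, intermediate progenitors, neurons and erythroid markers. The neuron count was 0 to 1 with 1 library left out. Signs of log2 differences that missed the threshold turned by voom for Hist3h2ba (-0.0382), Hist1h2ap (0.23), Hist1h2bc (-0.0540), Hist2h2be (0.0578), Hist1h2ae (0.27), Hist1h4i (0.18), Hist4h4 (-0.67), Hist1h1d (0.16) and Hist1h3e (0.10). Without GFAP replicate 2 and NG2 replicate 5 they turned for Hist1h2ae (0.14), Hist4h4 (-0.60), Hist1h1d (0.0878) and Hist1h4c (0.0350). With 1 library left out, the range was -0.16 to 0.0713 for Hist2h2be, -0.25 to 0.17 for Hist1h2ae, -0.0857 to 0.39 for Hist1h1b, -0.26 to 0.40 for Hist1h3d and -0.52 to 0.45 for Hist4h4. The cause of these changes was not tested. Low counts limit the H3 genes, and shared sequence limits Hist1h2ao and Hist1h2ap.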
